A study of Mus musculus with 30 samples.

Results

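Neutrophils and microglia sorted from the same injured brain tissue are compared here, in wild-type mice after stroke. The comparison was defined by sample title, and it holds 10 of the 30 arrays in the series: 4 of WT neutrophils and 6 of WT microglia. All mice in the series were male C57BL/6 mice 8 to 10 weeks old whose middle cerebral artery was blocked for 45 min and then reopened (MCAo with reperfusion). Cells were taken from the ischemic hemisphere 48 h after reperfusion. The WT mice carried both working copies of Trem1 and the KO mice lacked it. Every group had the occlusion, and no array of unoperated or sham brain was analysed here, so a difference between the cell types cannot be separated into what stroke changed and what each cell type holds at rest. WT macrophages (3 arrays), KO neutrophils (5) and KO microglia (6) are used below as points of reference, and all 30 arrays enter the estimate of spread behind the tests.

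Neutrophils are short-lived granulocytes that are made in the bone marrow, carry preformed proteins in cytoplasmic granules and enter injured tissue from the blood. Microglia are the macrophages that live in the brain. They renew themselves in place, depend on signalling through the CSF1 receptor and TGF-beta, and sense the tissue through purine, complement and lipid receptors. After a stroke both cell types occupy the same tissue, one as an arrival and the other as a resident.

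The cells were sorted on CD45, CD11b and Ly6G. Per the labels, neutrophils were CD45 high, CD11b positive and Ly6G positive, and microglia were CD45 low and CD11b positive. The labels also describe the microglia as Ly6G positive, as they do the neutrophils, while macrophages are Ly6G negative. Ly6g itself was not analysed here, so that gate could not be examined at the gene it is named for. The labels number the arrays as biological replicates without saying whether each was 1 mouse or a pool, and the spread between arrays is the spread on which the tests rest.

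Values are log2 of the deposited intensities. A step of 1 is a 2-fold difference, and the median transcript cluster (the array's unit, usually 1 per gene) had a mean of 6.69. Differences are WT neutrophils minus WT microglia, each with its standard error (SE), and were tested in limma with 1 mean per group over all 30 arrays. The SE and p of a cluster rest on 1 spread shared by all 6 groups, not on the 10 compared arrays alone. A cluster is said to have passed where its adjusted p (Benjamini-Hochberg, over all 22103 clusters) was under 0.05. The 4 neutrophil arrays varied more than the others, with a median SD of 0.378 per cluster against 0.298 in WT microglia, and they correlated less well with each other (mean correlations of 0.933 to 0.962 against 0.983 to 0.986). For a cluster that varies among the neutrophil arrays, the shared spread can thus understate theirs, and the SE can be too small. Their 100 brightest clusters held 26.1 to 27.6% of the total intensity, against 20.3 to 21.8% in WT microglia. Because these are relative measures on bulk RNA, less RNA from a gene in each cell and fewer cells that use the gene cannot be told apart.

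Most clusters differed between the cell types. Of 22103 clusters 12007 passed (54.3%), with 4873 higher in neutrophils (22%) and 7134 lower (32.3%). With 1 array weight per group, 9971 passed. Large increases were more extreme than large decreases. At 64-fold or more, 106 clusters were higher in neutrophils and 14 were lower, whereas 906 were shown to be over 2-fold higher (4.1%) and 2671 over 2-fold lower (12.1%). In 35.8% of clusters the 4 neutrophil values did not overlap the 6 microglia values. The balance of directions depends on how arrays are scaled. The share of passing clusters that were higher in neutrophils was 40.6% as deposited, 51.6% after quantile normalization or median centring, and 84.5% when each array was centred on its cytosolic ribosomal protein genes. Under that centring 68.4% of all clusters were higher in neutrophils and 12.6% were lower. The median difference over all clusters was -0.06, 0.05, 0.08 and 1.01 under these 4 scalings, so that a modest decrease can turn into an increase under the last of them. Gene lists whose median changes sign are named as such below. Counts of list members are to be set against 22% higher and 32.3% lower of all clusters, and a count near those shares is no trait of a list.

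**Figure D1:**
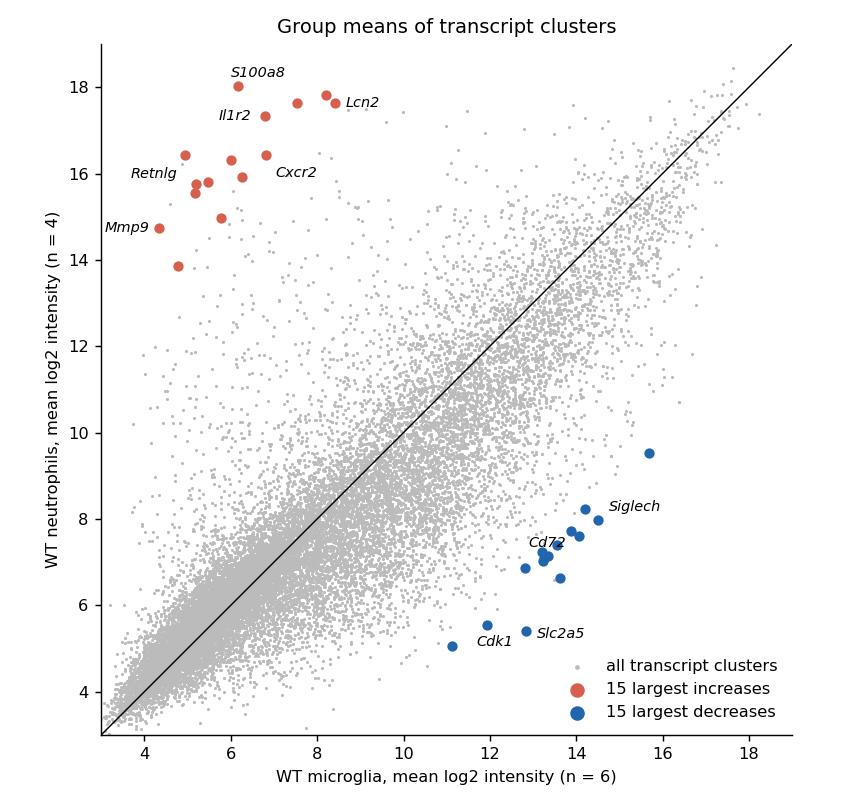
Mean log2 intensity of every transcript cluster in 6 WT microglia arrays (horizontal) and 4 WT neutrophil arrays (vertical), with the 15 largest increases and 15 largest decreases as coloured points and some of them named. The increases reach a difference of 11.85 above the diagonal, and the decreases reach 7.43 below it.

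The genes behind the sort were measured first. Ptprc, which encodes CD45, read 15.52, 15.97, 16.21 and 15.85 in the neutrophil arrays and ran from 14.37 through a median of 14.83 to 15.28 in microglia. It was 2.16-fold higher in neutrophils (difference 1.11, SE 0.22, adjusted p = 0.000106 in limma), and the groups did not overlap, matching the order of the CD45 gates. Itgam, which encodes CD11b, read 14.95, 15.91, 15.78 and 15.43 in neutrophils and 14.71 to 15.26 in microglia, with a median of 14.94. These groups overlapped, and the difference of 0.56 (SE 0.18, adjusted p = 0.00934 in limma) dropped to 0.43 without neutrophil array 2, where it no longer passed (adjusted p = 0.0591). Trem1, the activating receptor whose loss defines the KO mice, read 17.20, 17.51, 17.27 and 16.82 in neutrophils against 7.62 to 10.44 in microglia, with a median of 9.91. It was 194-fold higher in neutrophils (difference 7.60, SE 0.40, adjusted p = 1.5e-15 in limma). The arrays labelled KO neutrophil still read 15.12 to 16.39 for Trem1. Whether the array's probes lie outside the deleted part was not tested, so Trem1 does not check the KO labels here.

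Defining markers of each cell type followed the labels. All 21 measured neutrophil markers of a list of 24 were higher in neutrophils, with a median difference of 9.22, and their mean level was 14.8 to 15.9 on the neutrophil arrays against 6.72 to 7.42 on the microglia arrays. Of 23 measured homeostatic microglia markers, 20 were lower in neutrophils and 2 were higher, with a median difference of -4.10. The mean of that list was 9.72 to 10.5 on the neutrophil arrays and 13.2 to 14.2 on the microglia arrays. Both exceptions are surface proteins: Selplg, the P-selectin ligand that leukocytes roll on, with a difference of 1.03 (SE 0.17, adjusted p = 5.14e-06), and the purine receptor P2ry13, with 1.60 (SE 0.38, adjusted p = 0.000745).

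Markers of other cells were read on the same arrays. Of 16 markers of recruited monocytes and macrophages, 12 were higher in neutrophils and 2 lower (median 3.03). Their mean level was 11.34 to 12.25 in neutrophils, 14.10 to 14.46 in WT macrophages and 8.07 to 8.825 in microglia. Ccr2, a chemokine receptor of monocytes, shows the order well: 7.52, 8.75, 9.96 and 8.11 in neutrophils, 5.08 to 5.65 in microglia and a mean of 15.32 in macrophages. Lists for T cells, B cells, natural killer cells, dendritic cells, astrocytes, oligodendrocytes and neurons had means between 4.98 and 7.17 in all 10 arrays, and each had a median difference no larger than 0.36 in size as deposited (B cells and oligodendrocytes change sign with ribosomal centring). Of 75 genes in those 7 lists that were measured, 14 were higher and 12 were lower in neutrophils, against 22% and 32.3% of all clusters. Their members ran from -6.52 in the dendritic list and -2.91 in the B cell list up to 1.71 in the astrocyte list. Without 1 array the medians ran from -0.20 to 0.14 for neurons (0.01 with all arrays) and from 0.12 to 0.33 for T cells (0.22). For B cells they ran from -0.27 to -0.13 (-0.23) and for oligodendrocytes from -0.30 to -0.13 (-0.23). Some other lists held larger medians. The platelet and megakaryocyte list had a median of 0.66 (0.43 without neutrophil array 2 and 0.37 without microglia array 3), with 3 of 7 higher and 2 lower, and the eosinophil list 0.51, with 4 of 7 higher (2 without neutrophil array 2, 3 or 4) and 0 lower. The endothelial and mural list had a median of 0.04 (-0.09 to 0.11 without 1 array), with 3 of 14 higher and 3 lower, and its higher members included Ly6c1, which monocytes also carry (6.40, SE 0.47; macrophage mean 14.74), and the smooth muscle actin gene Acta2 (2.49, SE 0.26). The mast cell and basophil list had a median of 0.24 (0.14 without neutrophil array 4 and 0.37 without array 1). Of its 10 genes 5 were higher (3 without neutrophil array 3) and 0 lower. Single genes of these lists stood out, such as Kit, the stem cell factor receptor, in the mast cell and basophil list. Kit read 7.69, 14.42, 9.76 and 11.39 in neutrophils against 5.06 to 5.74 in microglia (difference 5.40, SE 0.80, adjusted p = 1.34e-06 in limma). Siglecf, a lectin best known from eosinophils, had a difference of 4.91 (SE 0.46, adjusted p = 4e-10), while the eosinophil granule genes Prg2 and Epx did not pass (0.29 and 0.16).

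Individual neutrophil arrays also stood apart from each other. Array 1 had the highest homeostatic microglia mean (10.5 against 9.72 to 10.1 on the other 3). Array 2 had the highest mean of secondary and tertiary granule genes (14.8 against 12.35 to 13.20), and array 4 the highest mean of 30 cartilage and connective tissue genes (9.77 against 7.25 to 7.91). The cartilage list mean was 6.29 to 7.64 in microglia. With all 4 arrays 14 of its 30 genes were higher in neutrophils and 1 was lower, and without array 4 those counts were 4 and 0. Its median difference was 1.04 with all 4 arrays and 0.33 without array 4. Gene results whose call rests on one of these arrays are given with and without it, as are list medians that turn or move by over 1.5 times without 1 array. The part of these list levels in other genes was not tested.

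**Figure D2:**
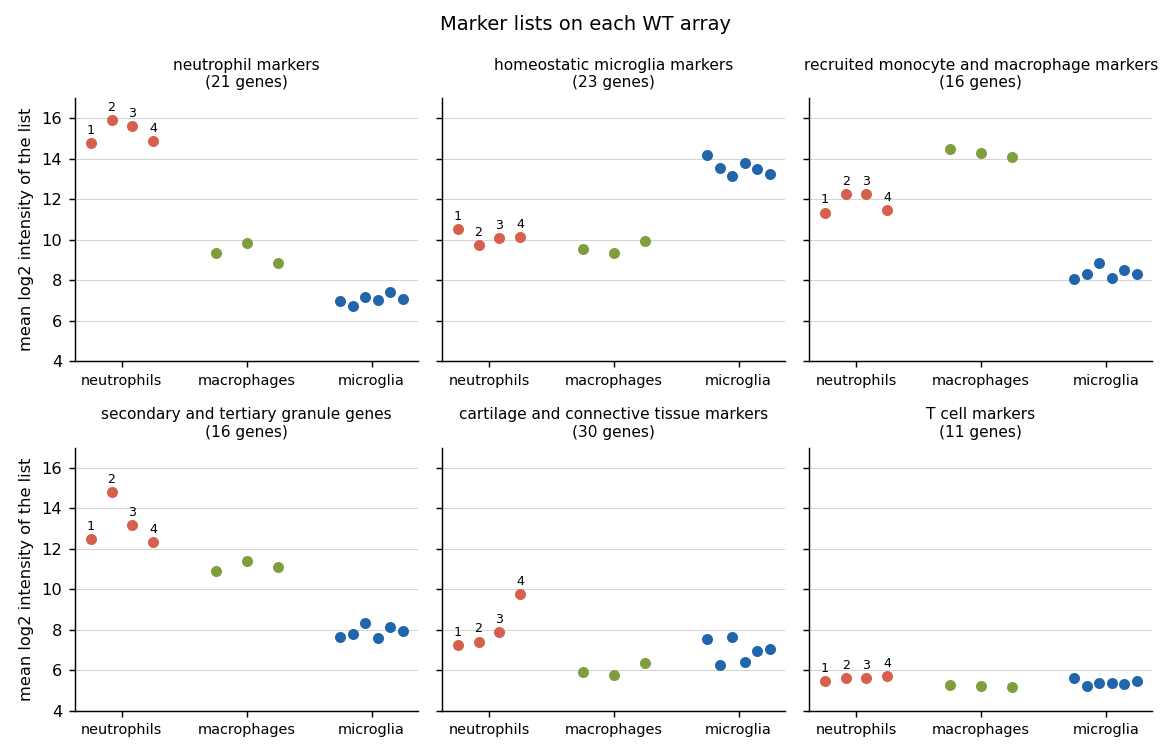
Mean log2 intensity of 6 marker lists on each WT array, grouped by cell type; each point is 1 array and neutrophil arrays carry their replicate number. The neutrophil list separates the neutrophils at 14.8 to 15.9 from the microglia at 6.72 to 7.42, and neutrophil array 4 stands above the other 3 for the cartilage list at 9.77.

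The 15 largest increases were 543- to 3680-fold, and nearly all of them encode cargo or receptors of neutrophils. S100a8 and S100a9 encode the subunits of calprotectin, the zinc- and calcium-binding protein that fills the neutrophil cytosol. S100a8 read 17.83, 18.32, 18.20 and 17.72 in neutrophils and 4.65 to 7.11 in microglia, with a median of 6.36. Its difference of 11.85 (SE 0.92, adjusted p = 9.21e-12) was the largest of any named gene. S100a9 read 17.34, 17.85, 17.94 and 17.43 against 6.98 to 8.07, with a median of 7.52, for a difference of 10.11 (SE 0.74, adjusted p = 2.37e-12). For both genes every neutrophil array lay far above every microglia array. Groups that did not overlap were a condition for being among these 15 genes.

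Secreted proteins and enzymes made up most of the others. Retnlg, a resistin-like secreted protein of neutrophils, read 15.44, 17.45, 17.23 and 15.60 against a microglia median of 4.79 (difference 11.50, SE 0.67, adjusted p = 1.92e-14). Mmp8, the neutrophil collagenase, read 14.18, 16.71, 15.79 and 16.33 against a median of 4.98 (difference 10.56, SE 0.46, adjusted p = 2.46e-17). Mmp9, the gelatinase of tertiary granules, read between 14.34 and 15.06 against a median of 4.25 (difference 10.41, SE 0.33, adjusted p = 1.5e-20). The matrix proteases were thus high on every neutrophil array, and their microglia values ran from 3.74 to 6.31. Lcn2, the iron-siderophore binding lipocalin, had a difference of 9.22 (SE 0.87), Chil3, a chitinase-like lectin, 10.39 (SE 0.54), and Wfdc21, a whey acidic protein family member, 9.61 (SE 0.53). Acod1, which makes the metabolite itaconate, differed by 9.64 (SE 0.39), and Slfn4, a Schlafen family member, by 10.35 (SE 0.34).

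Receptors and interleukin-1 family members completed the group. Cxcr2, the receptor for neutrophil-attracting CXC chemokines, read 16.38, 16.77, 16.47 and 16.11 in neutrophils and 6.58 to 7.07 in microglia, with a median of 6.87 (difference 9.61, SE 0.30, adjusted p = 1.5e-20). Il1r2, the decoy receptor that binds interleukin-1 without signalling, was nearly constant in neutrophils at 17.18, 17.36, 17.40 and 17.37. In microglia 5 arrays read 5.59 to 6.32, and array 5 read 10.91. The difference was 10.53 (SE 0.62, adjusted p = 2.32e-14), and 11.35 without that array. Il1f9, which encodes the cytokine IL-36 gamma, differed by 10.30 (SE 0.36), the orphan receptor gene Mrgpra2b by 9.19 (SE 0.37), and the stefin Stfa2l1 by 9.08 (SE 0.40).

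Most of these genes also separated neutrophils from the other recruited myeloid cells. Of the 15, 14 were higher in WT neutrophils than in WT macrophages as well, as were 29.6% of all clusters. The exception was Chil3, whose mean was 15.56 in neutrophils and 15.65 in macrophages. Both recruited groups read at least 15.02 for Chil3 on every array, and microglia read at most 7.39.

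**Figure D3:**
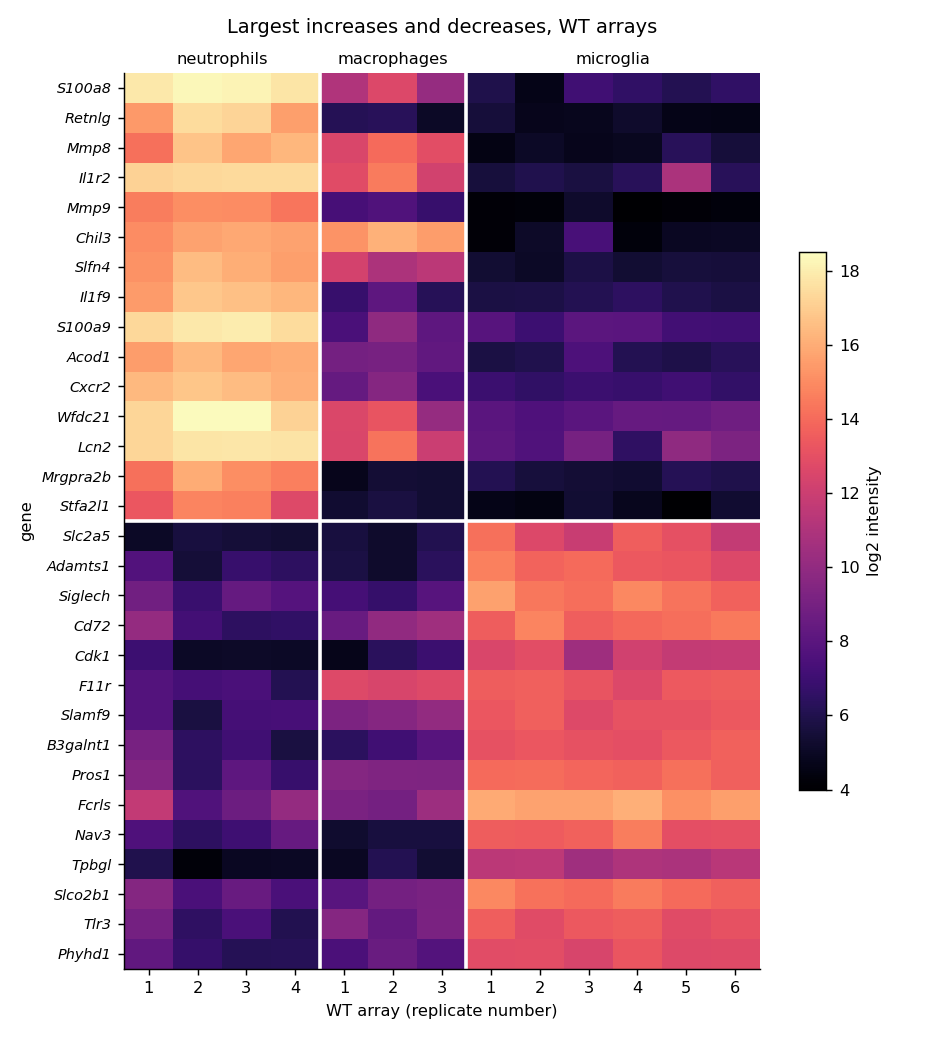
Log2 intensity of the 15 largest increases (upper block) and 15 largest decreases (lower block) on the 13 WT arrays, 1 column per array, with a colour scale from low (dark) to high (bright). The upper block is bright in neutrophils; Chil3, Il1r2, Mmp8 and Lcn2 also have macrophage means of at least 12.92, and the lower block is bright in microglia, with F11r also at a mean of 12.61 in macrophages.

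Promoters of the leading genes are shown for the sequence context of genes that were high together. Of the 15 increases 13 matched a promoter in the RefSeq table (GRCm38.p6), and the 250 bases before the start were searched on both strands for a C/EBP motif (TTGCNNAA, reverse TTNNGCAA) and a PU.1 motif (GAGGAAGT, reverse ACTTCCTC), after factors that act in granulocyte and myeloid genes. The C/EBP motif was found in 4 of 13 promoters (30.8%; Lcn2, S100a9, Mmp8 and Retnlg) and in 9.56% of all 32851 promoters in the table. The PU.1 motif was found in 2 of 13 (15.4%; S100a8 and Mmp8) and in 2.44% of all. Among 14 of the genes that led in microglia, the C/EBP motif was found in 2 (Siglech and Tlr3) and the PU.1 motif in 2 (Slamf9 and Cd72). These are letter matches in small sets and say nothing of binding. The promoters below are those of the calprotectin pair, of the collagenase gene that held both motifs, and of 1 microglia gene, each written 5′ to 3′ on the gene's strand with motif matches in capitals. They lie at chr3:90668821-90669070 on the plus strand (S100a8), chr3:90695722-90695971 on the minus strand (S100a9), chr9:7558179-7558428 on the plus strand (Mmp8) and chr4:43454627-43454876 on the minus strand (Cd72).
S100a8: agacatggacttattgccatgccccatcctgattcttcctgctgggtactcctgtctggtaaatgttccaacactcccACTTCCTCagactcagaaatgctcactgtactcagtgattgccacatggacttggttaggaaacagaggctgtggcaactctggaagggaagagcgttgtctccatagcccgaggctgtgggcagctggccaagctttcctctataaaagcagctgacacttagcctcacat
S100a9: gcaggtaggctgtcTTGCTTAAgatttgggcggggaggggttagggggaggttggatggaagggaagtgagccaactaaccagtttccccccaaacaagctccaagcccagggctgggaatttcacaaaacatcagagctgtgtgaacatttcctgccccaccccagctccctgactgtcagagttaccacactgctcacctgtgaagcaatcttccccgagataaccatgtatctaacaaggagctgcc
Mmp8: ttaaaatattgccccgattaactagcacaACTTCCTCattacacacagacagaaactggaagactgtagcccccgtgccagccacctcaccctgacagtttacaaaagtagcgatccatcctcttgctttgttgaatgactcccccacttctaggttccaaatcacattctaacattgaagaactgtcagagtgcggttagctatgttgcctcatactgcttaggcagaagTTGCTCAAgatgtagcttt
Cd72: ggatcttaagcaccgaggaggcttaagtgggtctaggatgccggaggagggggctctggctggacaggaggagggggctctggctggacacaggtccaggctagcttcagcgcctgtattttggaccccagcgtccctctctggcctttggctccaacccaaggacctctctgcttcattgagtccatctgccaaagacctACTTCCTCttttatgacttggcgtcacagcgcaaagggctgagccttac

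The factors named by these motifs differed less between the cell types than the genes above. Spi1, which encodes PU.1, read 16.29 to 16.67 in neutrophils and 15.16 to 15.91 in microglia (difference 1.10, SE 0.16, adjusted p = 1.57e-06). Cebpb was higher by 0.88 (SE 0.17), Cebpe, a factor of late granulocyte maturation, by 1.37 (SE 0.20), and Cebpd by 2.69. Cebpa, at -0.18, did not pass (adjusted p = 0.344). Counted from the start, the PU.1 match began at -172 in S100a8 and at -49 in Cd72, and the C/EBP match at -236 in S100a9.

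The 15 largest decreases, 62.2- to 173-fold, included several genes known from resident microglia. Slc2a5, the fructose transporter that marks microglia among brain cells, read 5.07, 5.68, 5.51 and 5.36 in neutrophils and 11.73 to 14.14 in microglia, with a median of 12.83. Its difference was -7.43 (SE 0.42, adjusted p = 9.01e-15). Siglech, a sialic acid binding receptor, read 8.84, 6.85, 8.40 and 7.83 against a median of 14.34 (difference -6.52, SE 0.39, adjusted p = 2.47e-14). Cd72, an inhibitory lectin, read 10.11, 7.22, 6.47 and 6.59 against a median of 14.02 (difference -6.47, SE 0.69, adjusted p = 3.97e-09). In Siglech and Cd72 the highest neutrophil value came from array 1, the array with the most microglia marker signal. The lowest microglia arrays read 13.69 and 13.56. Groups that did not overlap were a condition for being among these 15 genes.

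The others in this group span adhesion, transport and sensing. Adamts1, a secreted metalloprotease, differed by -7.00 (SE 0.45), Fcrls, an Fc receptor-like scavenger protein of microglia, by -6.16 (SE 0.65) and Tlr3, the receptor for double-stranded RNA, by -5.97 (SE 0.41). Cdk1, the kinase that drives mitosis, differed by -6.38 (SE 0.47). Pros1, which encodes protein S, a ligand of receptors for dying cells, differed by -6.17, and Nav3, a microtubule-binding protein, by -6.16 (SE 0.35). Those not yet named, F11r, Slamf9, B3galnt1, Tpbgl, Slco2b1 and Phyhd1, lay between -6.22 and -5.96. Against WT macrophages 7 of the 15 differed. In 6 neutrophils were lower there too, as in 22% of all clusters, and in Nav3 they were higher (1.87, adjusted p = 0.000437), so that most of this block did not set neutrophils apart from macrophages in the test.

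The cargo lists show which parts of the neutrophil store were present. Of 16 measured genes for calprotectin, stefins and small secreted proteins, 15 were higher in neutrophils and 1, the stefin Csta1, was lower (-0.95), with a median of 8.08. S100a6 and S100a11, relatives of the calprotectin genes, differed by 7.34 (SE 0.37) and 4.42 (SE 0.28), and Anxa1, an anti-inflammatory annexin, by 9.01. For secondary and tertiary granules, made late in maturation, 13 of 16 were higher and 0 lower (median 4.47). Hp, which encodes haptoglobin, differed by 9.05 (SE 0.41) and Pglyrp1, a peptidoglycan recognition protein, by 8.91 (SE 0.44).

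The earliest-made granules gave a different picture. Of 10 primary granule genes, 6 were higher and 1 lower, with a median of 0.57. Their messages are made in bone marrow precursors. The gene for myeloperoxidase, Mpo, read 7.54 to 7.88 in neutrophils and 7.23 to 7.76 in microglia (difference 0.26, adjusted p = 0.239), and that for neutrophil elastase, Elane, 5.46 to 5.58 against 5.53 to 6.31 (-0.35, adjusted p = 0.252). Neither was shown to differ between a granulocyte and a brain macrophage. Of 15 genes of the NADPH oxidase and peroxide handling, 6 were higher and 2 lower (median 0.20; 0.05 without neutrophil array 1 and 0.10 without microglia array 1), and the oxidase subunits Cybb and Cyba did not pass (-0.81 and -0.22). Padi4, the enzyme that citrullinates histones before chromatin release, read 9.48, 10.83, 11.10 and 9.52 against a microglia median of 4.50 (difference 5.81, SE 0.31, adjusted p = 2.14e-15).

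Receptors of the innate system split by family. Of 11 C-type lectin receptor genes, 9 were higher in neutrophils and 1 lower (median 2.82). Clec4e, the receptor Mincle that recognises dead cells and mycobacterial lipid, read 16.14, 16.88, 16.69 and 16.18 against 7.22 to 8.95 in microglia (difference 8.42, SE 0.30, adjusted p = 2.2e-19). Its relatives Clec4n (Dectin-2) and Clec4d differed by 7.62 (SE 0.33) and 6.12 (SE 0.44). In the list of TREM receptors and their ITAM signalling partners, 10 of 18 were higher and 5 lower (median 0.88). Trem2, the lipid receptor of microglia, ran the opposite way to Trem1. It read 11.71, 9.82, 9.21 and 8.64 in neutrophils and 14.42 to 14.85 in microglia, with a median of 14.69 (difference -4.81, SE 0.33, adjusted p = 5.34e-13; -5.43 without neutrophil array 1). The adaptor that both receptors share, Tyrobp, differed by only 0.50 (SE 0.12, adjusted p = 0.000555), and the kinase Syk by 3.38 (SE 0.26).

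Toll-like receptors went in both directions, as did all clusters (22% higher and 32.3% lower). Of 19 genes, 8 were higher and 6 lower (median 0.37; 0.01 without neutrophil array 2 and 0.68 without array 4). Among receptors of the cell surface, Tlr4, which senses endotoxin, was higher by 1.78, Tlr6 by 2.69, and the co-receptor Cd14 by 1.58 (SE 0.27), while Tlr2 did not pass (-0.03). Among nucleic acid sensors of endosomes, Tlr3, Tlr7 and Tlr9 were lower, by 5.97, 1.41 and 3.86, and Tlr8 was higher by 2.31. With ribosomal centring Tlr7, at -0.34, no longer passed.

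Receptors for attractants were mostly higher in neutrophils. Of 15, 11 were higher and 3 lower (median 1.20). Beside Cxcr2, its relative Cxcr1 differed by 6.30 (SE 0.34) and the leukotriene B4 receptor Ltb4r1 by 8.04 (SE 0.38). Cxcr4, which holds neutrophils in bone marrow and rises as they age, read 15.90, 15.93, 15.66 and 15.78 against 7.74 to 9.22 in microglia (difference 7.38, SE 0.27, adjusted p = 3.25e-19). Its macrophage mean was 15.15, and neutrophils and macrophages were not shown to differ in it (adjusted p = 0.077). Cx3cr1, the fractalkine receptor by which microglia attend to neurons, read 9.82, 7.59, 7.80 and 7.61 in neutrophils against 13.20 to 13.98 (difference -5.31, SE 0.39, adjusted p = 2.3e-12). Of the growth factor receptors, Csf3r, the G-CSF receptor of granulocytes, was higher by 3.66 (SE 0.22) and Csf1r, on which microglia depend, was lower by 2.57 (SE 0.17).

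Adhesion genes went in both directions, as did all clusters (22% higher and 32.3% lower). Of 19 leukocyte adhesion genes, 8 were higher and 6 lower (median 0.03; from -0.05 without microglia array 2 to 0.30 without neutrophil array 4). Jaml, a junctional adhesion protein used in crossing epithelium, differed by 8.16 (SE 0.30), Itgal, the LFA-1 chain, by 5.62 (SE 0.23), and Cd44, the hyaluronan receptor, by 5.03 (SE 0.30). Itgb5 and Itgb1 were lower, by 3.78 and 1.81.

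Messages for inflammatory signals differed in level between the 2 cell types. Il1b, which encodes interleukin-1 beta, read 17.41, 17.48, 17.54 and 17.56 in neutrophils and 8.05 to 10.35 in microglia, with a median of 8.98. It was 332-fold higher in neutrophils (difference 8.37, SE 0.41, adjusted p = 2.99e-16). Il1a, which encodes interleukin-1 alpha, went the other way at 10.36, 12.59, 11.19 and 12.19 against 12.93 to 15.19 (difference -2.54, SE 0.57, adjusted p = 0.000414). The 2 forms of interleukin-1 thus differed in opposite directions, while Il1a still read above the median cluster mean of 6.69 on every neutrophil array. Of 16 interleukin-1 family genes, 10 were higher and 5 lower (median 1.40). Inhibitors stood among the higher ones, with the decoy receptor Il1r2 above and the receptor antagonist Il1rn at 5.60 (SE 0.37), as did the signalling co-receptor Il1rap at 8.56 (SE 0.50).

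Chemokines were on both sides, as were all clusters (22% higher and 32.3% lower). Of 24 genes, 9 were higher (7 without neutrophil array 3 or 4) and 7 lower (median 0.41, or 0.16 without neutrophil array 3 and 0.07 without array 4). Cxcl2, which attracts neutrophils, read 17.12, 17.83, 17.72 and 17.08 in neutrophils against 10.59 to 13.12 in microglia (difference 5.96, SE 0.74, adjusted p = 6.68e-08), and Cxcl3 differed by 4.06. Of those that act on monocytes and lymphocytes, Ccl12 was lower by 4.42 (SE 0.42), Cxcl10 by 3.16, Ccl4 by 1.94 and Ccl2 by 1.33, while Ccl6 was higher by 2.74 (SE 0.32) and Ccl7 did not pass (-0.58). Under ribosomal centring Ccl4 and Ccl2 kept their sign but no longer passed (adjusted p = 0.0528 and 0.435). Ccl3 was high in both, at 15.45 to 16.22 in neutrophils and 15.66 to 17.01 in microglia, and did not pass (adjusted p = 0.334). Of 17 cytokines of the TNF, IL-6, IL-10 and IL-12 families, 8 were higher and 3 lower (median 0.81). Il23a, a subunit of interleukin-23, differed by 6.81 (SE 0.58) and Ltb, which encodes lymphotoxin beta, by 6.47 (SE 0.31). Tnf, at 12.93 to 14.94 against 11.53 to 13.82, did not pass (adjusted p = 0.0878).

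Genes of lipid mediators also went in both directions, as did all clusters (22% higher and 32.3% lower). Of 17 genes, 6 were higher and 8 lower (median -0.48; 0.21 after quantile normalization and 0.59 with ribosomal centring, so its sign depends on the scaling). The steps towards leukotriene B4 were higher: Alox5 by 3.49 (SE 0.48), its partner Alox5ap by 1.78 (SE 0.26) and Lta4h by 0.86 (SE 0.29). Without neutrophil array 4 the last of these was 0.53 and no longer passed (adjusted p = 0.127). Ltc4s, which makes the cysteinyl leukotriene C4 instead, was lower by 2.45 (SE 0.32). Ptgs2, the inducible cyclooxygenase, was higher by 4.52 (SE 0.34), while Hpgds, the prostaglandin D2 synthase of macrophages, read 11.19, 9.75, 10.22 and 7.61 against 14.67 to 15.63 (difference -5.32, SE 0.38, adjusted p = 1.28e-12).

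Complement genes were split between the cell types, as were all clusters (22% higher and 32.3% lower). Of 14 genes, 5 were higher and 5 lower (median -0.13, or 0.13 after quantile normalization and 0.94 with ribosomal centring; -0.06 without microglia array 1 and -0.20 without array 4). The 3 chains of C1q, which starts the classical pathway and tags synapses and debris, were all lower. C1qa read 15.47, 12.81, 12.90 and 13.23 in neutrophils against 16.62 to 17.05 (difference -3.29, SE 0.46, adjusted p = 5.61e-07; -3.91 without neutrophil array 1). C1qb and C1qc differed by -4.93 (SE 0.46) and -4.66 (SE 0.45), and array 1 was again the highest of the 4 in both. Cfp, which encodes properdin, the stabiliser of the alternative pathway, was higher by 5.74 (SE 0.48).

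Genes for the uptake of dying cells and debris were mostly lower in neutrophils. Of 21, 5 were higher (2 or 3 without neutrophil array 1, 3 or 4 or microglia array 2 or 6) and 12 lower (median -0.95), but with ribosomal centring 10 were higher and 9 lower, with a median of 0.12. Under that centring all clusters were 68.4% higher and 12.6% lower (median 1.01). The receptor tyrosine kinase Mertk read 10.76, 9.93, 8.43 and 8.71 against 14.12 to 14.60 (difference -4.92, SE 0.35, adjusted p = 1.3e-12), its relative Axl differed by -3.37 (SE 0.42), and their ligand Gas6 by -5.09 (SE 0.54). All 3 kept their direction and passed under ribosomal centring (-3.85, -2.30 and -4.02). Of 15 matrix and adhesion genes of microglia, 14 were lower and 1, the sialic acid receptor Cd33, was higher (median -3.84). Adgrg1, an adhesion receptor of microglia, differed by -5.83 (SE 0.44) and Olfml3, a secreted matrix protein, by -4.10 (SE 0.36). Sparc, a matrix glycoprotein, read 14.86, 12.21, 13.53 and 16.81 in neutrophils, highest on the array with high cartilage genes, and 17.04 to 17.60 in microglia (difference -2.89, SE 0.80, adjusted p = 0.00323; -3.71 without array 4).

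Receptors for antibody and the proteases of matrix each held members on both sides, as did all clusters (22% higher and 32.3% lower). Of 10 Fc receptor genes, 3 were higher and 4 lower (median 0.00, or 1.07 with ribosomal centring; -0.07 to 0.04 without 1 array). The high-affinity receptor gene Fcgr1 read 13.84, 12.71, 13.89 and 11.74 in neutrophils against 15.93 to 16.20 in microglia (difference -2.99, SE 0.26, adjusted p = 6e-11), and the inhibitory receptor gene Fcgr2b differed by -2.17 (SE 0.16). Fcgr4, an activating receptor gene, was higher by 1.08 (SE 0.24). Of 17 metalloproteinases and their inhibitors, 7 were higher and 6 lower (median 0.28; 0.15 without neutrophil array 2 and 0.17 without microglia array 1). Beside Mmp8 and Mmp9 the higher ones included Mmp19, at 4.36 (SE 0.45), and Mmp25, a membrane-bound protease of leukocytes, at 2.76 (SE 0.20). Mmp12, the elastase of macrophages, read 14.75, 9.79, 9.58 and 11.05 against 15.05 to 17.05 (difference -4.73, SE 0.85, adjusted p = 2.38e-05; -5.89 without neutrophil array 1). Timp2, an inhibitor, differed by -1.81 (SE 0.26).

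Growth and repair factors were mostly at similar or lower levels in neutrophils. Of 15 measured, 2 were higher and 8 lower (median -0.33, or 0.74 with ribosomal centring). The higher ones were Vegfa, which drives vessel growth, and Hgf, the hepatocyte growth factor gene, at 1.05 (SE 0.26). Igf1, a growth factor of activated microglia, read 11.75, 8.19, 9.10 and 12.40 in neutrophils against 11.11 to 14.34 in microglia (difference -2.72, SE 0.67, adjusted p = 0.00103), and the groups overlapped. Pdgfa, a factor for oligodendrocyte precursors, differed by -2.57 (SE 0.28). Of 17 genes for cholesterol synthesis, efflux and lipid uptake, 1 was higher and 6 were lower (median -0.24, or 0.83 with ribosomal centring; -0.39 without neutrophil array 2 and 0.05 without array 4). Ch25h, which makes 25-hydroxycholesterol, was flat in neutrophils at 5.97, 6.06, 5.98 and 5.97 and ran from 9.70 to 11.30 in microglia (difference -4.72, SE 0.39, adjusted p = 3.36e-11). Lpl, which encodes lipoprotein lipase, differed by -2.57 (SE 0.19).

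Of 12 purinergic receptors and ectoenzymes, 4 were higher and 8 lower (median -2.04). P2ry12, the ADP receptor that steers microglial processes, read 13.21, 13.88, 13.87 and 13.68 in neutrophils and 15.31 to 16.53 in microglia (difference -2.12, SE 0.26, adjusted p = 8.14e-08). Tmem119, another microglia marker, had a gap of -4.37 (SE 0.39). P2rx7, the ATP-gated channel upstream of the inflammasome, was lower by 3.98 (SE 0.33), and Nt5e, which makes adenosine, was higher by 4.76.

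For MHC class II presentation, 4 of 14 genes were higher and 8 lower (median -1.25). The peptide-loading genes H2-DMb1 and H2-DMa were lower by 5.73 (SE 0.40) and 4.60 (SE 0.34), while the class II chain H2-Aa was higher by 1.13 (SE 0.32), with means of 8.54 in neutrophils, 7.41 in microglia and 14.38 in macrophages. Of 20 lysosomal genes, 0 were higher and 15 lower (median -1.08), but 7 were higher and 8 lower with ribosomal centring (median -0.01). Under that centring all clusters were 68.4% higher and 12.6% lower (median 1.01). Gaa, the lysosomal glucosidase, and Gusb, the glucuronidase, were lower by 3.30 and 2.96. Of 17 genes of the disease-associated microglia state, 4 were higher and 8 lower (median -0.30, or 0.77 with ribosomal centring). That median turned to 0.06 without neutrophil array 4, and was -0.61 without array 1, -0.16 without array 3 and -0.14 without microglia array 6. Cst7, an inhibitor of cathepsins, was lower by 5.50 (SE 0.42), and Gpnmb, a glycoprotein of lipid-laden macrophages, was higher by 3.94 (SE 0.45) with a macrophage mean of 14.95. Gpnmb was highest on neutrophil array 1, and the difference without it was 3.38.

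**Figure D4:**
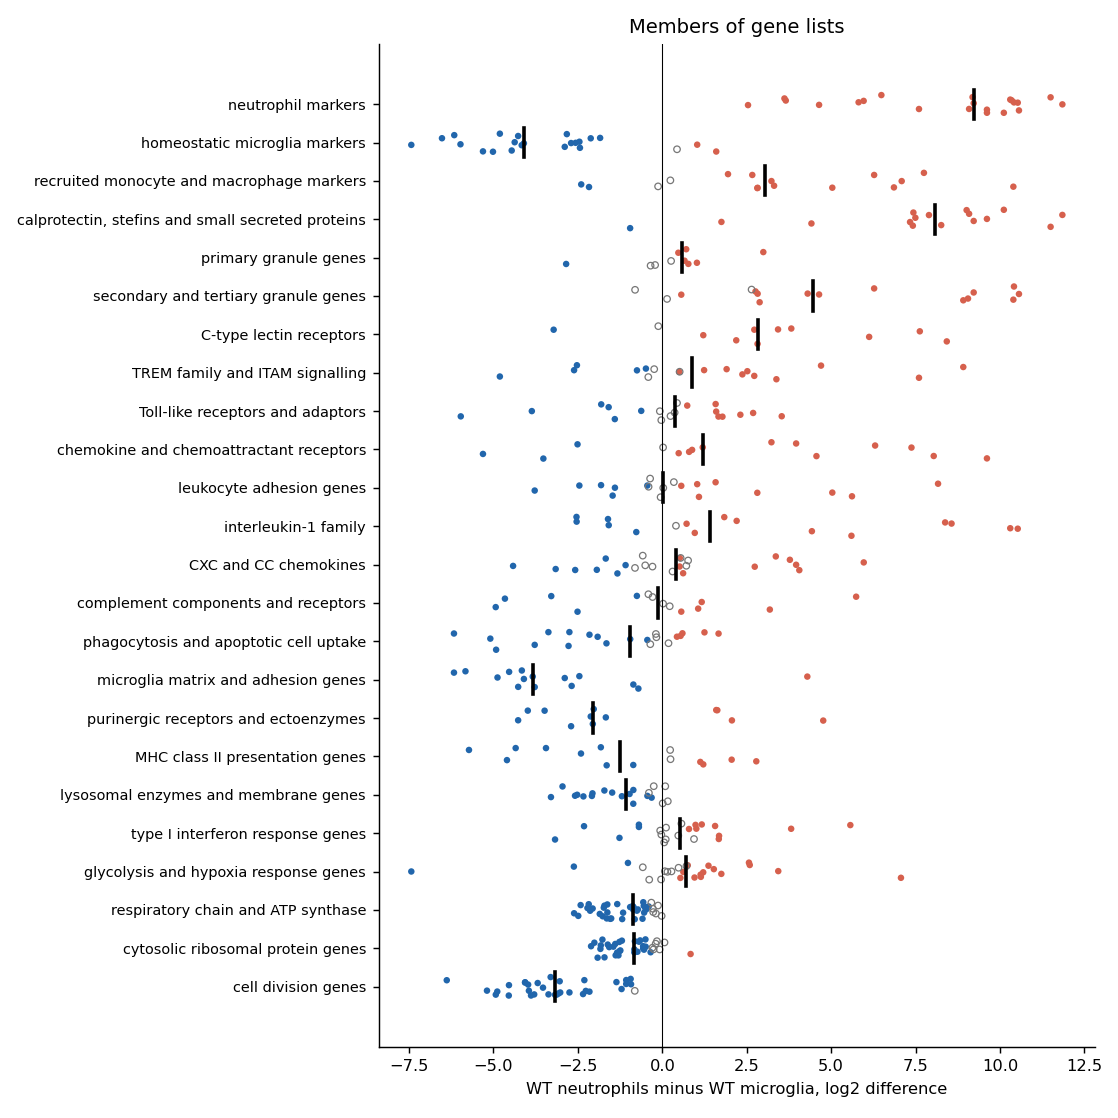
Difference in log2 intensity (WT neutrophils minus WT microglia) of each measured member of 24 gene lists; filled points passed, open points did not, and bars mark list medians. The neutrophil markers lie at a median of 9.22, the homeostatic microglia markers at -4.10 and the cell division genes at -3.18.

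Transcription factors of the myeloid lineages came next. Of 26 myeloid lineage factors 9 were higher and 14 lower (median -0.45, or 0.62 with ribosomal centring). Sall1, the factor that maintains microglia identity, read 7.02, 6.29, 6.71 and 6.53 against 11.18 to 12.17 (difference -5.01, SE 0.27, adjusted p = 2.2e-15). Mef2c, also of microglia, differed by -5.86 (SE 0.44) and Irf8, which directs precursors away from the granulocyte path, by -3.64 (SE 0.29). Of 23 TGF-beta pathway genes 5 were higher (3 without microglia array 2, 3, 4 or 6) and 11 lower (median -0.44, or 0.63 with ribosomal centring). All clusters were 22% higher and 32.3% lower. The receptor gene Tgfbr2 was lower by 3.30 (SE 0.21) and Smad1, a signal transducer of the BMP branch, by 4.18 (SE 0.21). Of 18 NF-kB subunits and feedback regulators 11 were higher and 2 lower (median 1.16), led by the inhibitors Bcl3 (2.75) and Nfkbid (2.74) and with Nfkbia (2.44) and Tnfaip3 (2.12).

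Factors induced within minutes of stimulation were also on both sides, as were all clusters (22% higher and 32.3% lower). Of 22 AP-1, EGR and immediate early genes, 11 were higher and 5 lower (median 0.77). The count of lower genes was 3 without neutrophil array 1 or without microglia array 1 or 5. Fosl2 differed by 3.61 (SE 0.31), Egr3 by 3.33 (SE 0.28) and Egr2 by 2.30 (SE 0.37). Atf3, a stress-induced factor, read 11.32, 10.75, 10.85 and 10.05 in neutrophils against 13.49 to 15.49 in microglia (difference -3.71, SE 0.36, adjusted p = 5.72e-10).

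Interferon-linked families were not uniform. Of 13 interferon-induced transmembrane and Schlafen genes, 10 were higher and 1 lower (median 3.19), with Ifitm1 at 17.10 to 17.71 against 8.20 to 9.32 (difference 8.76, SE 0.31, adjusted p = 1.69e-19) and Slfn1 at a difference of 6.93 (SE 0.27). Of 22 other type I interferon response genes, 9 were higher and 5 lower (median 0.52; 0.81 without neutrophil array 1 and 0.32 without array 2). The count of lower genes was 3 without array 4. Oas2, which senses double-stranded RNA, was higher by 5.57, whereas Isg15, Ifit1, Ifit3 and Rsad2, which respond widely to interferon, did not pass (0.57, 0.11, 0.06 and -0.03).

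Survival genes were likewise mixed, with 7 of 18 higher and 7 lower (median -0.15, or 0.03 after quantile normalization and 0.92 with ribosomal centring; -0.25 to -0.08 without 1 of neutrophil arrays 1 to 3). All clusters were 22% higher and 32.3% lower. Mcl1, on which neutrophil survival depends, was higher by 2.08 (SE 0.13) and Bcl2 lower by 3.52.

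Cell division genes were lower in neutrophils, which are post-mitotic. Of 33, 32 were lower and 0 higher (median -3.18), and 26 were still lower with ribosomal centring (median -2.11). Their mean level was 6.94 to 7.32 in neutrophils, 9.34 to 10.96 in microglia and 6.96 to 7.35 in WT macrophages. Mki67, the proliferation marker, read 9.97, 9.57, 10.21 and 9.56 in neutrophils against 13.48 to 15.75 in microglia (difference -4.54, SE 0.40, adjusted p = 8.67e-11). Top2a, the topoisomerase of chromosome separation, Aurkb, a mitotic kinase, and Rrm1, a subunit of ribonucleotide reductase, differed by -4.93 (SE 0.41), -4.89 (SE 0.41) and -5.19 (SE 0.39).

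Metabolic genes divided between glycolysis and the mitochondrion. Of 25 genes of glycolysis and the hypoxia response, 14 were higher and 3 lower (median 0.71; 0.42 without neutrophil array 2). Egln3, an oxygen sensor induced by hypoxia, read 11.92, 13.06, 12.59 and 11.23 against 4.79 to 5.55 in microglia (difference 7.07, SE 0.37, adjusted p = 1.13e-15), Pfkp was higher by 3.43 and Vegfa by 2.59. The hexokinase Hk2 was lower by 2.62, and Ldha and Gapdh did not pass (0.07 and -0.04). Of 42 nuclear genes of the respiratory chain and ATP synthase, 0 were higher and 36 lower (median -0.87). That direction is not independent of scaling: with ribosomal centring 15 were higher and 13 lower (median 0.20). All clusters were then 68.4% higher and 12.6% lower (median 1.01), so the list still lay below the median of all clusters.

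Genes of protein synthesis and breakdown were mostly lower as deposited. Of 37 cytosolic ribosomal protein genes 30 were lower and 1 higher (median -0.83), and centring on these same genes cannot test their direction. Of 41 mitochondrial ribosomal protein genes 32 were lower and 0 higher (median -1.44, or -0.37 with ribosomal centring), and of 35 proteasome genes 31 were lower and 0 higher (median -1.31, or -0.24). Against 32.3% of all clusters lower, these shares are high as deposited. With ribosomal centring both of these medians stayed below 0. Then 17 of 41 mitochondrial ribosomal genes were lower and 8 higher, and 7 of 35 proteasome genes were lower and 1 higher, while 12.6% of all clusters were lower.

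The neutrophil arrays also differed in how many clusters bright in the other cells they read low. A set of 2015 clusters was chosen, after the values were seen, as those that read 11 or more on all macrophage and all microglia arrays of both genotypes, and whose 2 WT group means there lay no more than 1 apart. Of these, 21, 84, 103 and 203 read more than 3 below the mean of those 2 groups in WT neutrophil arrays 1 to 4, and 5 to 25 did so in the KO neutrophil arrays. The set has no condition on neutrophils, so low neutrophil values are partly fixed by how it was chosen, and only the arrays of neutrophils can be set side by side. Members of the gene lists were not left out of the set, so a list mean and these counts can share genes. The respiratory chain mean was 12.39, 11.87, 11.80 and 11.60 on the same 4 arrays, in the same order as those counts rise, and 12.65 to 13.42 in microglia. The proteasome mean was 12.78, 12.10, 12.03 and 11.66, against 13.10 to 13.86. The part of this in the lower values was not tested.

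Genes of arginine handling and of heme and iron handling were read in turn. Arg1 and Arg2, which break arginine down to ornithine, read 14.29 to 15.70 and 12.67 to 13.83 in neutrophils, with differences of 6.27 (SE 0.67) and 7.27 (SE 0.25), and Nos2, which makes nitric oxide from the same amino acid, was higher by 4.41 (SE 0.36). The next steps, from ornithine to polyamines, were lower: Odc1 by 2.84 (SE 0.29) and Srm by 4.86 (SE 0.48). Of 12 genes in that list 4 were higher and 5 lower (median -0.30, or 0.25 after quantile normalization and 0.77 with ribosomal centring). Of 16 heme and iron genes 9 were higher and 2 lower (median 0.62), including Steap4, a metalloreductase, at 7.23 (SE 0.35).

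Some genes varied widely among the 4 neutrophil arrays. The SE and adjusted p of such genes use the spread shared by all 6 groups and understate the spread of these 4 arrays. Ngp, a secondary granule protein of immature neutrophils, read 7.85, 16.07, 10.88 and 7.38 against 5.53 to 7.60 in microglia (difference 4.30, SE 1.22, adjusted p = 0.00387). Without array 2 the difference was 2.46 and did not pass (adjusted p = 0.0528). Ltf, which encodes lactoferrin, read 6.10, 12.76, 5.87 and 5.79, with a difference of 2.88 (SE 0.79, adjusted p = 0.00298) that was 1.17 without array 2 (adjusted p = 0.0128). Camp, the cathelicidin gene, was at 14.61 on array 2 and between 4.97 and 6.35 on the other 3, and did not pass (adjusted p = 0.0956). Array 2 was thus the highest of the 4 for all 3 genes.

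Cartilage genes were high on another. Mia read 6.38, 7.37, 8.14 and 14.22 (difference 2.35, adjusted p = 0.0297; 0.62 and 0.419 without array 4), and Ghr, the growth hormone receptor, 5.19, 5.61, 5.83 and 12.09 (difference 1.74, adjusted p = 0.0404; 0.11 and 0.737 without it). Both genes also missed the threshold when some single microglia arrays were left out (adjusted p of up to 0.0691 for Mia and 0.0677 for Ghr). Igfbp5 and Mxra8 behaved alike, with 12.50 and 14.43 on array 4, and neither passed without it (adjusted p = 0.192 and 0.102). Fkbp9, the last of the 8 genes with the largest SD among the neutrophil arrays, read 6.66, 6.25, 6.69 and 12.31 against a microglia median of 10.86. It was lower in neutrophils (difference -3.03, SE 0.71, adjusted p = 0.000664; -4.47 without array 4). The adhesion receptor Adgrg3 was the reverse. It read 11.02, 11.99 and 11.78 on arrays 1 to 3 and 5.42 on array 4, within the microglia range of 4.44 to 6.26. Its difference was 5.03 (SE 0.81, adjusted p = 5.03e-06), and 6.58 without array 4.

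Genes read at nearly the same level in both cell types give a baseline. For 2077 of 18441 genes (11.3%) the 95% confidence interval of the difference lay within 0.5 of 0. The 10 brightest were Actb, Itm2b, Cox7c, Serinc3, Cd63, Rpl41, Lamp2, Psap, Rps25 and Ftl1, which encode actin, membrane, lysosomal, ribosomal, respiratory and iron storage proteins. Actb read 17.65 to 17.98 in neutrophils and 17.50 to 17.70 in microglia, and its small difference of 0.26 (SE 0.11) passed (adjusted p = 0.0395), but not without neutrophil array 2 or 3 (adjusted p = 0.11 and 0.132), nor without microglia array 2, 3, 5 or 6, and after quantile normalization it was -0.01. Psap, which encodes the precursor of the saposins, read 16.51 to 17.22 against 16.57 to 16.96 (difference 0.01). These intervals hold for the deposited scaling; with ribosomal centring the same 10 differed by 0.88 to 1.33.

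The same contrast in KO mice compares none of these arrays. Its tests share with the WT tests the spread per cluster estimated over all 30 arrays, so the calls of the 2 genotypes are not fully independent. Between 5 KO neutrophil and 6 KO microglia arrays 9949 clusters passed (45%), and 7857 passed in both genotypes in the same direction, which is 65.4% of the WT calls and 79% of the KO calls. Another 31 passed in opposite directions. Of 3577 clusters shown to be over 2-fold apart in WT, 3344 passed in KO with the same direction (93.5%). Both sets of 15 leading genes passed in KO in the same direction. The size was smaller in KO for 3109 of the 3577 (86.9%), with a median size of 1.69 against 2.51. Since the WT genes were chosen on their WT size, a smaller size elsewhere is partly fixed by the choice.

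The difference between the contrasts was tested directly for every cluster. It passed for 1280 (5.79%), with 897 higher in KO (4.06%) and 383 lower (1.73%). This balance turns with the scaling: with ribosomal centring 508 were higher in KO and 10471 lower. The count depended on single arrays: it was 2611 without WT neutrophil array 1, 724 without KO neutrophil array 1 and 2118 without KO neutrophil array 5. Here a negative value means that the neutrophil-minus-microglia difference was lower in KO. The lowest were Ifitm6 (-3.33), Retnlg (-3.02), Cped1 (-3.01), Lipg (-2.95), Chil3 (-2.84) and Adam19 (-2.73). The highest were Rab3il1 (3.67), Cln8 (3.65), Cbr2 (3.51), Mertk (3.41), Ddx18 (3.31) and Anpep (3.20). Adjusted p was 0.0491 for Retnlg, 0.0295 for Cln8 and 0.0239 for Cbr2, and for these 3 leaving out 1 array could end the call (highest adjusted p 0.111, 0.0805 and 0.055). Ddx18 was 2.05 without WT neutrophil array 4. Of 20 lysosomal genes 17 had a higher difference in KO and 0 a lower one, and the KO median for that list was -0.07 against -1.08 in WT. The mean of the list was 14.91, 14.31, 14.05 and 13.86 on WT neutrophil arrays 1 to 4, the order in which the clusters read low above increase, and 14.95 to 15.67 on the KO neutrophil arrays, where few were read low. List members were not left out of the clusters counted above, so the 2 orders can share genes. The part of this order in the change was not tested. For Mertk the difference was -1.51 in KO against -4.92 in WT, and for Retnlg it was 8.47 against 11.50. For Trem1 the KO difference was 7.62, and the test of the change gave 0.02 (adjusted p = 0.985).

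**Figure D5:**
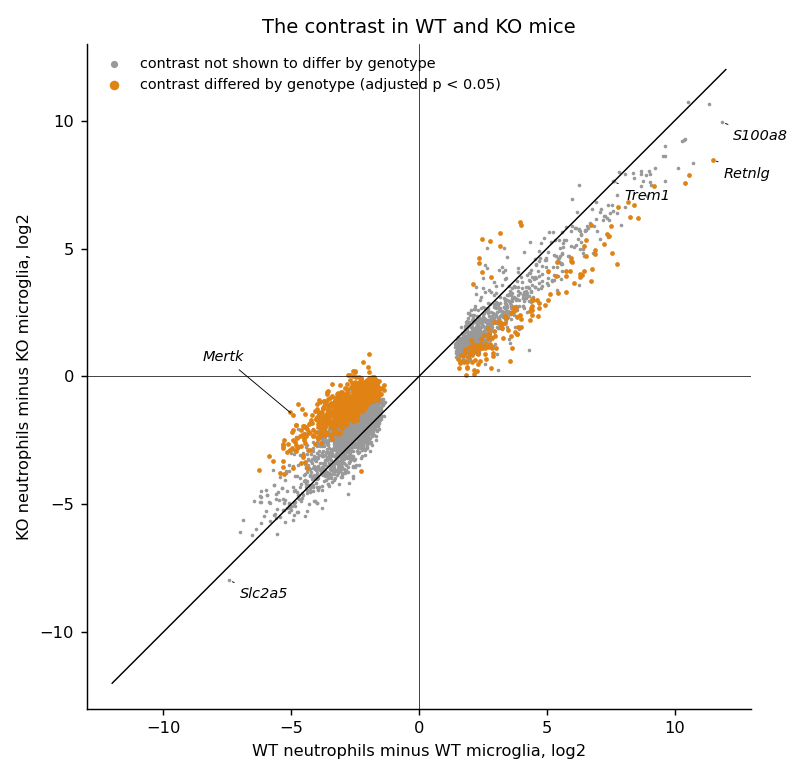
Difference between neutrophils and microglia in WT (horizontal) and KO mice (vertical), log2, for the 3577 clusters shown to be over 2-fold apart in WT; orange points are clusters whose contrast differed between genotypes. Points follow the diagonal with 86.9% of them nearer to 0 in KO than in WT.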

How the data were processed

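RNA from cells sorted out of ischemic hemispheres was hybridised to Affymetrix Clariom HT arrays, 1 per sample, 30 in all, in 6 groups of genotype and cell type taken from sample titles. The deposited values are linear intensities per transcript cluster, made by the authors with RMA (background correction, normalization across arrays and probe summary), per the submitters' processing notes. The RMA version and the array annotation are not given in the sources used here. Arrays have no read depth, and their number sets the precision.

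Intensities were turned into log2 with no pseudocount and no filter on dim clusters. limma 3.58.1 (R 4.3.3; lmFit with 1 mean per group, eBayes) gave contrasts, standard errors and Benjamini-Hochberg adjusted p-values over 22103 clusters, and treat with a log2 threshold of 1 gave the clusters shown to differ by over 2-fold. The threshold was 0.05, two-sided. The scripts were tested on simulated data. A gene was read from its brightest cluster with exactly 1 symbol, and symbols came from the platform annotation. Array probes measure parts of genes, so isoforms and near-identical family members may share signal. Probes differ in brightness, so the order of genes by intensity is an order of signals and not of RNA amounts.

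Named genes are the sort genes and Trem1, the 15 largest changes in each direction with groups apart, members of gene lists, the 10 brightest genes at near equal level, the 8 that varied most among neutrophil arrays, and the 6 largest genotype differences in each direction. The comparison, the gene lists and these rules were chosen with earlier results of these data known. Promoter letters were taken from RefSeq (GRCm38.p6). The labels do not say that equal replicate numbers mark 1 animal, and pairs of equal number did not deviate together, so arrays were not paired.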

Additional observations from a re-analysis of the deposited data

Results flagged for a closer look

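Each of the 204 named genes was examined in WT neutrophils (4 arrays) and WT microglia (6 arrays) for an array far from the rest, measured as its gap to the nearest other array divided by the range of the group. The limits were 0.829 for 4 arrays and 0.625 for 6. Of 408 groups 33 exceeded them, and chance gives about 1 in 20. The genes include 8 named for the largest SD among the neutrophil arrays, so the count cannot be set against that rate. Groups of 3 arrays were not examined. Neutrophil array 1 was far above the others for Cdk1 (0.943), Gusb (0.940), C1qb (0.931), Cx3cr1 (0.907) and C1qa (0.843). Array 2 was far above for Ltf (0.955), Tlr4 (0.889), Ifit1 (0.884), Ch25h (0.866) and Camp (0.857), and array 4 for Fkbp9 (0.928), Ghr (0.908) and Igfbp5 (0.835). Array 4 was far below for Cxcl10 (0.929) and Adgrg3 (0.853). Array 3 was above for Csta1 (0.878) and below for Hgf (0.912) and Odc1 (0.830).

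In microglia array 4 stood apart for 5 of the named genes, array 3 for 4 and each other array for 2 or fewer. Array 3 was far above for Ptgs2 (0.841), Acod1 (0.714), Chil3 (0.709) and Fkbp9 (0.689), array 5 for Il1r2 (0.862), array 1 for Vegfa (0.810) and array 4 for Hpgds (0.674). The gap was below the rest on array 4 for Srm (0.749), Odc1 (0.705), Tlr6 (0.654) and Jaml (0.630), on array 6 for Tlr2 (0.742), on array 1 for Trem1 (0.683), on array 5 for Camp (0.680) and on array 2 for Cxcl3 (0.677).

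The contrast between neutrophils and microglia differed between genotypes for 38 of the named genes (KO minus WT, adjusted p under 0.05 in limma over all clusters). Over all clusters 5.79% did so. The 6 largest genes in each direction were named because they passed this test, so the count of 38 is partly fixed by that choice. The difference was lower in KO for Ifitm6 (-3.33), Retnlg (-3.02), Cped1 (-3.01), Lipg (-2.95), Chil3 (-2.84), Adam19 (-2.73), Mmp8 (-2.70), Il1rap (-2.35), Mmp19 (-2.16), Nos2 (-1.81), Mrgpra2b (-1.75), Ltb (-1.38), Jaml (-1.35), Cebpd (-1.19) and Fcgr4 (-1.13). It was higher in KO for Rab3il1 (3.67), Cln8 (3.65), Cbr2 (3.51), Mertk (3.41), Ddx18 (3.31), Anpep (3.20), Trem2 (2.90), C1qb (2.83), Hpgds (2.69) and H2-DMb1 (2.42). C1qc and Gaa (both 2.33), Srm (2.28), Gpnmb (2.09), Atf3 (2.02), Irf8 (1.98), H2-DMa (1.87), Gusb (1.84), Itgb5 (1.81), Fcgr1 (1.75), Itgb1 (1.17), Fcgr2b (1.15) and Psap (0.80) were higher too.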

How the results depend on the processing

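The count of clusters past the threshold (12007) stayed within 1.5 times under every alternative except the fit with the replicate number as a block, which used 8 arrays and gave 7571; the same 8 arrays with no block gave 8602. With that block 12 of the 175 named genes that passed no longer did, against 10 with the same arrays and no block, and microglia arrays did not correlate best with the neutrophil array of their own number. Leaving out 1 of the 10 compared arrays gave 11072 to 11918. The count over 2-fold (3577) was 3311 to 3732 without 1 of them and 5757 with ribosomal centring. The count of contrasts that differ by genotype (1280) was 10979 with ribosomal centring (508 higher in KO and 10471 lower), 839 with array weights, 821 in the fit on 21 arrays and 724 to 2611 without 1 of the 21 WT and KO arrays. Itgam did not pass with the block or with the same 8 arrays (0.48), nor in the 10-array fit with weights (0.56), and ran from 0.43 to 0.75 without 1 compared array. Of 204 named genes 160 kept direction and side of the threshold under all alternatives. Ribosomal centring turned Cebpa (0.89), Csta1 (0.12), Elane (0.72), Cyba (0.85), Tlr2 (1.04), Rsad2 (1.04), Gapdh (1.03), Itm2b (0.98), Cox7c (0.93), Serinc3 (0.88) and Rps25 (0.91) positive, a scaling under which the median difference of all clusters was 1.01 against -0.06 as deposited, and quantile normalization turned Actb (-0.01). The cause of the other changes was not tested, beyond fewer arrays where arrays were left out. Intensities include background signal, so the fold of a gene that is dim in 1 group is a measure on this scale and not a ratio of molecules.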
